A study of Rattus norvegicus with 8 samples.

Results

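Hippo pathway and YAP/TAZ components were examined in RNA-seq data from the right Achilles tendon of the rat. The 10 genes were chosen by name as Yap1, Wwtr1, Tead1, Tead3, Lats1, Lats2, Amotl1, Amotl2, Ajuba and Ankrd1. They are 10 of 32883 genes in the count table, of which 21046 had at least 1 read. Male, young adult Sprague-Dawley rats of wild-type genotype were compared in 2 groups of 4. The 12 h p.r. (post-running) rats ran once for 1 h on an inclined treadmill, were urged on by airflow and a mild electric stimulus, and were killed 12 h later. The NC (normal control) rats stayed in their cages, did not run and were killed when the runners were. Each library was made from the polyadenylated RNA of a whole tendon, so it holds every cell type of the tissue, and fewer cells of a type cannot be told apart from less RNA per cell. The comparison asks how transcripts of the pathway differed from rest at 12 h after a single bout of loading.

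The Hippo pathway is a kinase relay that limits tissue growth. The kinases Mst1 and Mst2 (genes Stk4 and Stk3) activate Lats1 and Lats2, and these phosphorylate the co-activators YAP and TAZ, which are then held in the cytoplasm or degraded. Unphosphorylated YAP and TAZ enter the nucleus and act through the DNA-binding TEAD proteins on genes such as Ccn1, Ccn2 and Ankrd1. Stretch, matrix stiffness and actin tension are known to move YAP and TAZ into the nucleus in fibroblasts, so much of the control of the pathway lies in protein phosphorylation and location, which RNA-seq does not measure.

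TEAD proteins bind the sequence GGAATG, read as CATTCC on the opposite strand, and the promoter stretches that hold it are shown for the Hippo genes and for the targets Ccn1 and Ccn2. The 250 bases before each RefSeq gene start were searched on both strands, where the 2 spellings cannot overlap the same bases. The 10 genes had 11 windows, from 7 of them (5 for Amotl1), and 3 windows, each of a different gene, held the motif. Of 13 listed YAP/TAZ target genes with a window, 4 held it (Ccn1, Ccn2, Ptpn14 and Nuak2). Of all 33469 promoter windows of that length, 12.1% held it. In the lines below, from RefSeq on build GRCr8, each 30-base stretch reads 5′ to 3′ along the strand of its gene and the capitals mark the motif.
Yap1, chr8:13451536-13451565, minus strand: agggagtctgcaGGAATGtaacgacgcgca
Amotl2, chr8:112182538-112182567, plus strand: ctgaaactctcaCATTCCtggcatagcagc
Ajuba, chr15:32000261-32000290, minus strand: tgcccctccgcaCATTCCaactgtaaacaa
Ccn1, chr2:237225785-237225814, minus strand: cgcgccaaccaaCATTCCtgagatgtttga
Ccn2, chr1:22624763-22624792, minus strand: ttttcagacggaGGAATGtggagtgtcaag
Ccn2, chr1:22624698-22624727, minus strand: ggaaggtggggaGGAATGcgaggaatgtcc
Ccn2, chr1:22624689-22624718, minus strand: ggaggaatgcgaGGAATGtccctgtttgtg
The motif lay 116 bases before the start of Yap1, 76 before Amotl2, 236 before Ajuba and 113 before Ccn1. The Ccn2 window held it at 166, 101 and 92 bases before the start, and the stretches at 101 and 92 overlap each other. A match of 6 letters is a description of the sequence and not a measured binding site. The windows of Wwtr1, Tead3, Lats1 and Amotl1 did not hold these letters.

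The 8 libraries held 7350509 to 12951397 reads assigned to genes, and their pairwise correlation of log2 expression ranged from 0.923 to 0.972. Levels are given below as CPM, reads per 1000000 after scaling by trimmed mean of M values (TMM), a factor per library that evens out composition. The 8 tenocyte markers summed to 13908 to 43740 CPM in the 12 h p.r. rats and to 23985 to 36591 CPM in NC. Tendon markers were thus present in each library, with Col1a1 the largest part of each sum (11074 to 37542 CPM at 12 h p.r. and 19616 to 30557 CPM in NC). A few rats stood apart in markers of neighbouring tissue. The 8 of 11 fast skeletal muscle markers matched in the table summed to 59526 CPM in 12 h p.r. replicate 3, where the remaining 7 rats had 1327 to 10541 CPM. This rat also had the lowest tenocyte sum, 13908 CPM, which its fast muscle sum exceeded. The 9 cartilage and bone markers summed to 528 CPM in 12 h p.r. replicate 1 and 1350 CPM in NC replicate 3, against 13.9 to 130 CPM in the others. Of the markers named here Mmp13 was at 0 in 4 rats and Matn3 in 4, and no fast muscle marker was at 0 in any rat. Results that these rats move most are also given without them below.

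Among the 10 Hippo genes the co-activator transcripts Yap1 and Wwtr1 were the ones whose groups did not overlap, and both were higher 12 h after running. Yap1 was 1.38-fold and Wwtr1 1.27-fold above NC. Amotl1 averaged 1.63-fold higher with overlapping groups, and the kinases Lats1 and Lats2, the scaffolds Amotl2 and Ajuba and the DNA-binding Tead1 and Tead3 had 95% intervals of the difference that include 0. Ankrd1 varied more between rats of a group than between the groups. When edgeR quasi-likelihood p-values were adjusted by Benjamini-Hochberg for the 13937 genes tested, 0 of the 10 passed an adjusted p of 0.05, where 0.00718% of all genes (1 gene) did, and 3 of the 10 had an unadjusted p under 0.05. By DESeq2 with the same adjustment 1 of the 10, Yap1, passed, beside 0.671% of the 13864 genes that DESeq2 gave an adjusted p.

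All 10 passed the filter on low counts. Of the 10, 8 had a log2 fold change above 0 and 2 below, with a median of 0.22, beside 7557 above and 6380 below with a median of 0.02 over all genes tested. The 3 genes at an unadjusted p under 0.05 were all higher at 12 h p.r., where 5.44% of all genes were, and 9.51% of all genes reached that p in either direction. In 2 of the 10 every 12 h p.r. rat exceeded every NC rat, against 3.52% of all genes, and in 0 of the 10 was every 12 h p.r. rat lower, against 2.55%. Leaving out 12 h p.r. replicate 3 brought the median to 0.14, the only left-out rat that moved it beyond the spread between replicates.

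**Figure D1:**
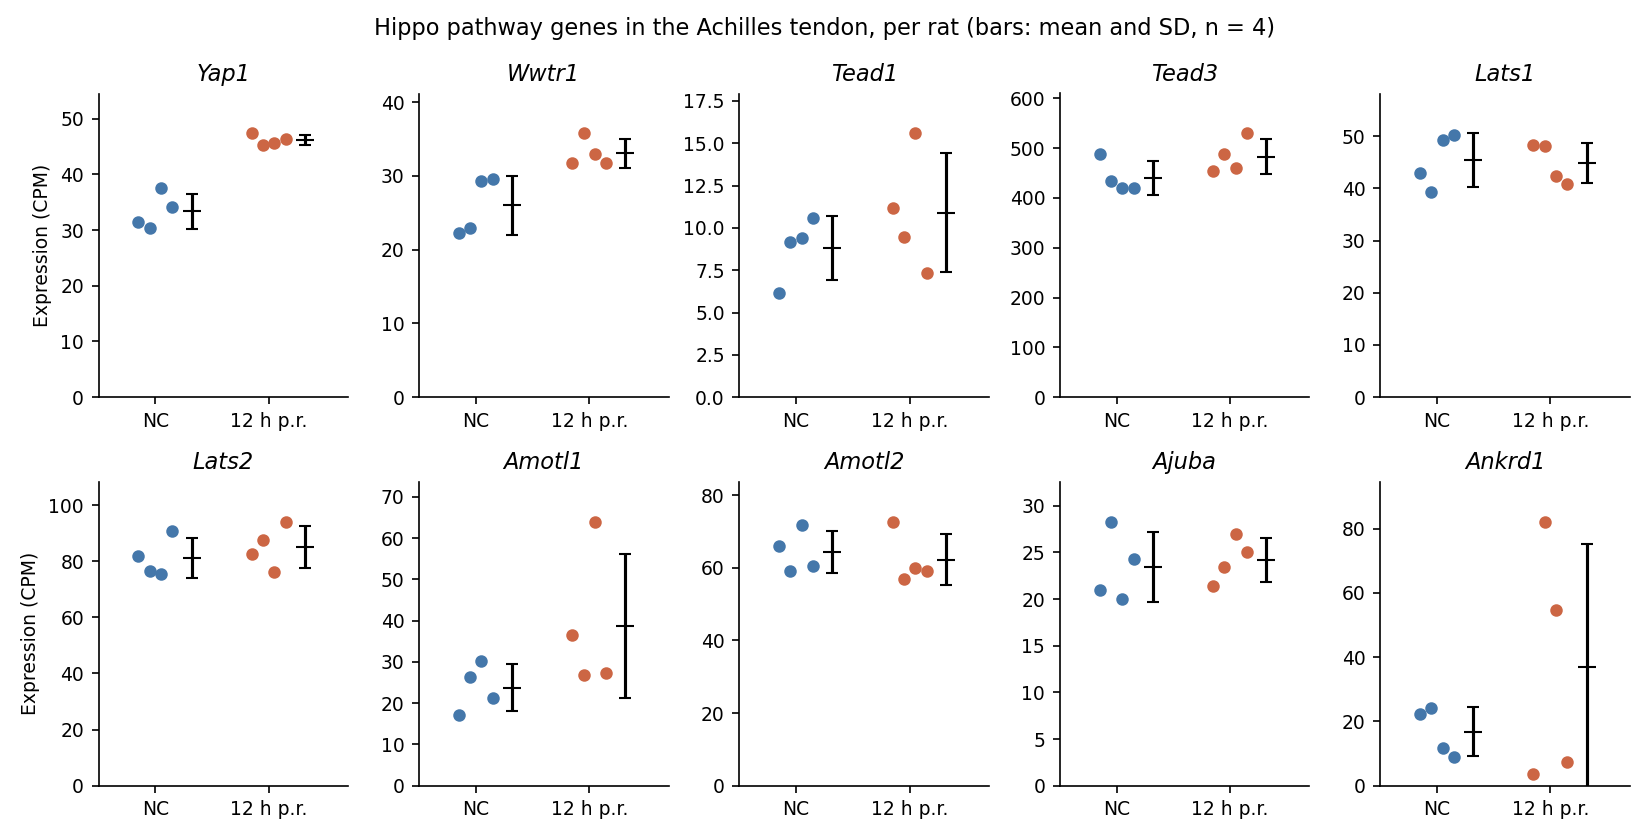
Expression of the 10 Hippo genes in TMM-scaled CPM (vertical axes, each from 0), with 1 point per rat for NC (blue) and 12 h p.r. (orange) and a bar for mean and SD (n = 4 per group). The orange points of Yap1 (45.2 to 47.4) and Wwtr1 (31.7 to 35.8) lie above all blue points, the other genes overlap, and the lower end of the 12 h p.r. SD bar of Ankrd1 runs below 0 and is cut at the axis.

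Yap1 (ENSRNOG00000005933) encodes YAP, the co-activator that the pathway restrains. The 12 h p.r. rats had 47.4, 45.2, 45.7 and 46.3 CPM of Yap1. The NC rats had 31.4, 30.4, 37.5 and 34.1 CPM. Every 12 h p.r. rat was above every NC rat, and the gap between the lowest runner and the highest control was wider than the range within the runners. The means were 46.2 ± 0.935 CPM (SD, n = 4) and 33.3 ± 3.22 CPM (SD, n = 4), from 248 to 498 reads per library. The log2 fold change was 0.47 (SE 0.09, 95% interval 0.27 to 0.67), and edgeR gave an unadjusted p of 0.000439 and an adjusted p of 0.385. In DESeq2 it was 0.46 (SE 0.11) with an adjusted p of 0.0110, so Yap1 rose by that test and did not pass by edgeR. An exact 2-sided permutation test over the 70 splits of the rats gave p = 0.0286, which is the smallest that 4 against 4 can give and is not adjusted for the 10 genes tested this way. In the 8 fits that omitted a rat the estimate lay between 0.43 and 0.53, at unadjusted edgeR p of 0.000234 to 0.00186. It was 0.47 without the rat high in muscle markers and 0.52 without both rats high in cartilage and bone markers.

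Wwtr1 (ENSRNOG00000016617) encodes TAZ, the paralog of YAP. The 12 h p.r. rats had 31.7, 35.8, 33.0 and 31.7 CPM of Wwtr1. The NC rats had 22.2, 22.9, 29.3 and 29.6 CPM. The groups again did not overlap, but NC replicates 3 and 4 came close to the runners while replicates 1 and 2 lay well below. The means were 33.0 ± 1.94 CPM and 26.0 ± 3.97 CPM (SD, n = 4 each). The log2 fold change was 0.34 (SE 0.12, 95% interval 0.07 to 0.61), with an unadjusted p of 0.0186 and an adjusted p of 0.450 by edgeR and an adjusted p of 0.394 by DESeq2. The exact permutation test gave p = 0.0286. The unadjusted edgeR p stayed under 0.05 in 5 of the 8 fits that left out a rat and reached 0.0504 without 12 h p.r. replicate 2, 0.0506 without NC replicate 1 and 0.0505 without NC replicate 2, with estimates of 0.28 to 0.41 over the 8.

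The level of Yap1 relative to Wwtr1 was similar in both groups. On the length-scaled FPKM values (fragments per kilobase of transcript, scaled for depth), the ratio of Yap1 to Wwtr1 was 1.60, 1.35, 1.48 and 1.56 in the 12 h p.r. rats and 1.50, 1.41, 1.37 and 1.23 in NC. These ranges overlap, and Yap1 was the more abundant transcript in each of the 8 rats.

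**Figure D2:**
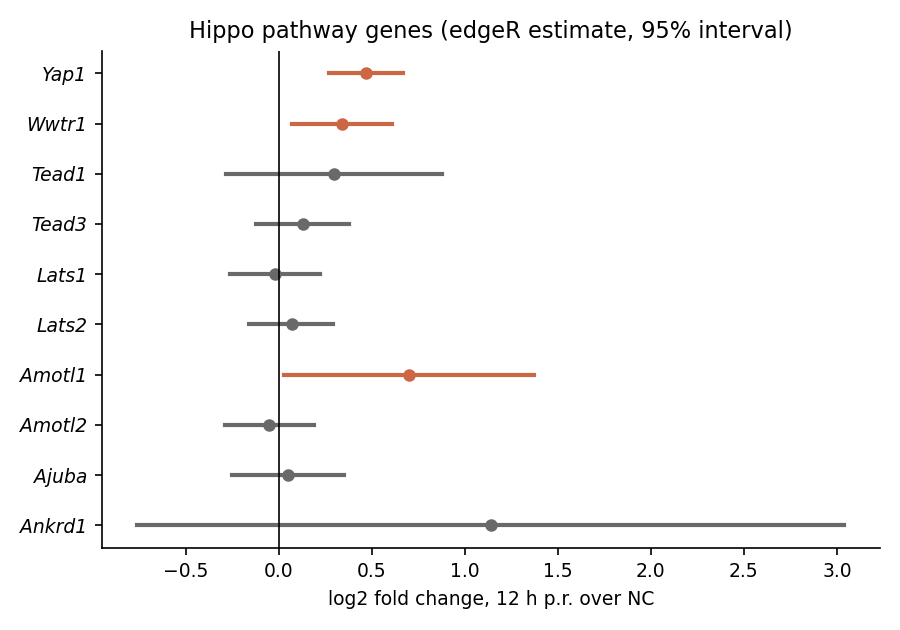
Log2 fold change (horizontal axis, 12 h p.r. over NC) of each Hippo gene as estimated by edgeR, with points for the estimates and lines for the 95% intervals, orange where the unadjusted p is under 0.05. The intervals of Yap1 (0.27 to 0.67), Wwtr1 (0.07 to 0.61) and Amotl1 (0.03 to 1.37) lie above 0 and the other 7 include it, widest for Ankrd1 (-0.76 to 3.04).

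The TEAD proteins are the DNA-binding partners of YAP and TAZ. Tead1 (ENSRNOG00000015488) had the lowest mean level per length of the 10 genes in NC. It had 11.2, 9.47, 15.6 and 7.31 CPM at 12 h p.r. and 6.16, 9.18, 9.42 and 10.6 CPM in NC. The highest and the next-to-lowest of the 8 values were both from runners, so the groups overlapped. Tead1's log2 fold change was 0.30 (SE 0.26, 95% interval -0.28 to 0.88, edgeR adjusted p = 0.743). It was 0.07 without 12 h p.r. replicate 3, the rat with the highest Tead1 level and the highest fast muscle markers. With the mean level of the fast muscle markers as a covariate it was 0.23 (edgeR adjusted p = 0.792). The part of muscle RNA in the Tead1 level was not tested beyond these fits.

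Tead3 (ENSRNOG00000000506) had 454, 488, 460 and 530 CPM at 12 h p.r. and 489, 433, 419 and 419 CPM in NC. Its groups overlapped through NC replicate 1, and its log2 fold change was 0.13 (SE 0.11, 95% interval -0.12 to 0.38, edgeR adjusted p = 0.732). Whether these reads come from Tead3 is uncertain. The table's counts for the adjacent gene Rpl10a (ENSRNOG00000000505), which encodes a protein of the large ribosomal subunit, were 3331, 3571, 3738 and 5481 at 12 h p.r. and 5904, 3339, 5304 and 4626 in NC. Tead3 had 3513, 3709, 3868 and 5654 reads and 6110, 3535, 5561 and 4939 reads in the same rats, which is 130 to 313 reads more in each.

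The ratio of Tead3 to Rpl10a thus lay between 1.03 and 1.07 in all 8 rats. Its coefficient of variation over the rats was 1.26%, below the 2.16% that the counting error of 2 independent counts of this size would give. Of 13936 other genes, Rpl10a was the closest to Tead3 by this measure, the same held the other way round, and the gene next closest to Rpl10a, Borcs7, had a coefficient of variation of 2.98%, against a median of 19.7%. Rpl10a's own log2 fold change was 0.15 (SE 0.11). In the RefSeq annotation of GRCr8 these genes are neighbours that do not overlap. How reads shared between gene models were counted is not given in the sources used here, and it was not tested whether Rpl10a reads were counted under both names. Tead3's place as the highest of the 10 levels should be read with this in mind.

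**Figure D3:**
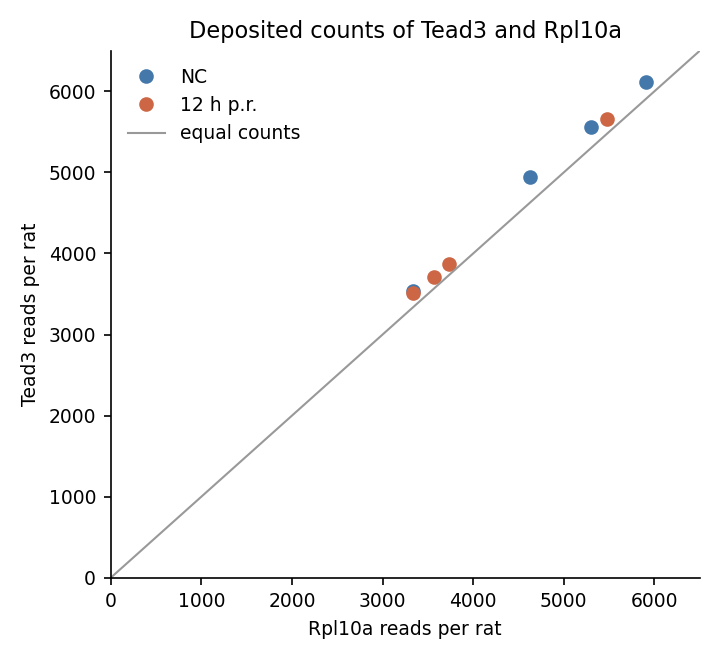
Reads assigned to Tead3 (vertical axis) against reads assigned to Rpl10a (horizontal axis) in each rat, NC in blue and 12 h p.r. in orange, with a grey line where both counts are equal. All 8 points lie just above the line, by 130 to 313 reads.

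Lats1 and Lats2 are the kinases that phosphorylate YAP and TAZ. Lats1 (ENSRNOG00000014916) had 48.3, 48.1, 42.4 and 40.9 CPM at 12 h p.r. and 42.9, 39.3, 49.2 and 50.2 CPM in NC. Both groups covered nearly the same range, and the log2 fold change was -0.02 (SE 0.11, 95% interval -0.26 to 0.22, edgeR adjusted p = 0.975). Lats2 (ENSRNOG00000056343), itself listed among YAP-responsive genes in many cells, had 82.7, 87.6, 76.3 and 94.1 CPM at 12 h p.r. and 81.8, 76.6, 75.5 and 90.9 CPM in NC. Its groups overlapped as fully, with a log2 fold change of 0.07 (SE 0.10, 95% interval -0.16 to 0.29, edgeR adjusted p = 0.856). Per length, Lats2 was 2.45 to 3.29 times as abundant as Lats1 at 12 h p.r. and 2.19 to 2.79 times in NC, which overlap. The upper bounds of both intervals lie below 0.47, the estimate for Yap1. The Yap1 interval of 0.27 to 0.67 overlaps that of Lats2, and a difference between these genes was not tested.

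Amotl1 and Amotl2 encode angiomotin-like proteins, junction and actin scaffolds that bind YAP and promote Lats activity. Amotl1 (ENSRNOG00000008990) had 36.4, 26.8, 64.0 and 27.3 CPM at 12 h p.r. and 17.2, 26.3, 30.2 and 21.2 CPM in NC. Replicate 3 of the runners was far above all others, and replicates 2 and 4 lay within the NC range. The means were 38.6 ± 17.5 CPM and 23.7 ± 5.71 CPM (SD, n = 4 each), with a log2 fold change of 0.70 (SE 0.30, 95% interval 0.03 to 1.37, unadjusted p = 0.0421, edgeR adjusted p = 0.507). The exact permutation test gave p = 0.114.

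Of the fits that left out a rat, the Amotl1 estimate was lowest without 12 h p.r. replicate 3, the rat high in fast muscle markers. Without this rat the log2 fold change was 0.35 (edgeR adjusted p = 0.569), and with the mean level of the fast muscle markers as a covariate it was 0.55 (edgeR adjusted p = 0.407). The unadjusted edgeR p was 0.0142 with the covariate, against 0.0421 without it. It was under 0.05 in 3 of the 8 fits that left out a rat, and it was over 0.05 without 12 h p.r. replicate 3 (0.122), without 12 h p.r. replicate 1 (0.0609) and without NC replicates 1 (0.108), 2 (0.0584) and 4 (0.0933). Without both rats high in cartilage and bone markers the estimate was 0.87. The part of muscle RNA in the Amotl1 level was not tested beyond these fits.

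Amotl2 (ENSRNOG00000008487) had 72.7, 57.0, 60.0 and 59.2 CPM at 12 h p.r. and 66.1, 59.0, 71.7 and 60.6 CPM in NC. The groups overlapped, and the log2 fold change was -0.05 (SE 0.11, 95% interval -0.29 to 0.19, edgeR adjusted p = 0.913). Per length, the ratio of Amotl2 to Amotl1 was 1.24, 1.31, 0.580 and 1.35 at 12 h p.r. and 2.38, 1.39, 1.47 and 1.77 in NC. Each runner was thus below each control in the balance of the 2 paralogs, by a narrow margin between 12 h p.r. replicate 4 and NC replicate 2. The ratio was computed after the values of both genes were seen and is given without a test.

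Ajuba (ENSRNOG00000012791) encodes a LIM-domain protein that binds Lats kinases and restrains them under tension. It had 21.4, 23.4, 27.0 and 25.0 CPM at 12 h p.r. and 21.0, 28.3, 20.0 and 24.3 CPM in NC. NC replicate 2 was the highest of all 8 rats, and the log2 fold change was 0.05 (SE 0.13, 95% interval -0.25 to 0.35, edgeR adjusted p = 0.924). 

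Ankrd1 (ENSRNOG00000018598) is a target of YAP and TAZ in many cells and encodes a stress-responsive ankyrin-repeat protein that is also made by striated muscle. It had 3.62, 82.2, 54.8 and 7.22 CPM at 12 h p.r. and 22.2, 24.2, 11.8 and 8.82 CPM in NC. Both the highest pair and the lowest pair of the 8 values came from runners, with all controls in between. The means were 37.0 ± 38.1 CPM and 16.7 ± 7.60 CPM (SD, n = 4 each). The log2 fold change was 1.14 (SE 0.84, 95% interval -0.76 to 3.04, edgeR adjusted p = 0.701), and the exact permutation test gave p = 0.800. The SD of log2 expression was 2.12 in the runners and 0.68 in NC, and the estimate moved from 0.39 without 12 h p.r. replicate 2 to 1.52 without 12 h p.r. replicate 1. It was 0.27 to 0.34 in limma on log2 FPKM.

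The rats with high Ankrd1 were not the same in the muscle marker lists. The 12 h p.r. rats 1 to 4 had summed fast muscle markers of 3121, 1737, 59526 and 3080 CPM, and the NC rats 3165, 8116, 10541 and 1327 CPM. Their 6 summed slow muscle markers came to 5.43, 1493, 149 and 243 CPM at 12 h p.r. and to 861, 2543, 1266 and 2086 CPM in NC. The runner with the most Ankrd1, replicate 2, had the most slow and the least fast muscle signal of its group, the next, replicate 3, had the most fast muscle signal of all, and the runner with the least Ankrd1, replicate 1, had nearly no slow muscle signal, with Myl2 at 0. None of the fast muscle markers had an unadjusted edgeR p under 0.05. Of the 6 slow markers 1, Myl2, was lower at that p, where 4.08% of all genes were. All 6 slow markers had estimates below 0, with a median of -1.85. With the mean level of the fast muscle markers as a covariate the Ankrd1 log2 fold change was 1.14 (edgeR adjusted p = 0.687). No fit used the slow markers, and the part of muscle RNA in the Ankrd1 level was not tested further.

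**Figure D4:**
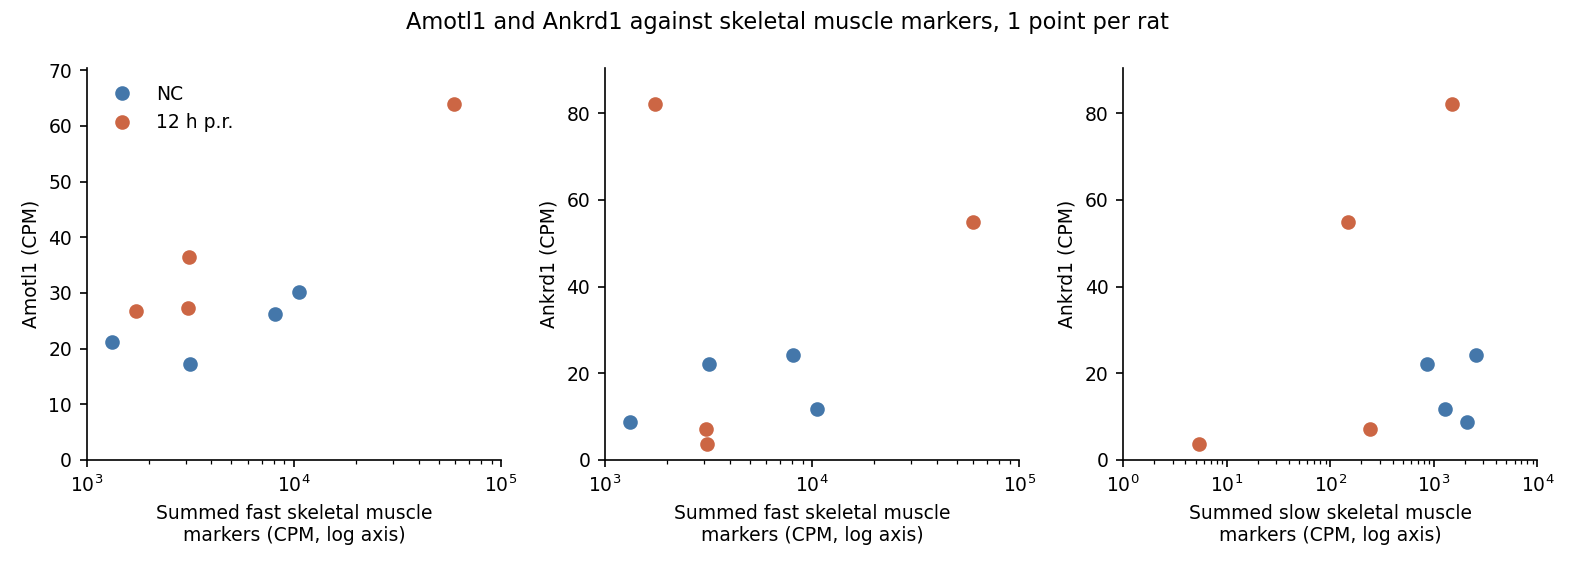
Amotl1 and Ankrd1 levels (vertical axes, CPM from 0) against the summed CPM of the fast or slow skeletal muscle markers (horizontal log axes), 1 point per rat, NC in blue and 12 h p.r. in orange. The rat with 59526 CPM of fast muscle markers had the highest Amotl1 (64.0 CPM), and the rat with the highest Ankrd1 (82.2 CPM) had 1737 CPM of fast and 1493 CPM of slow muscle markers.

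Per length, the 10 transcripts differed far more from each other than between the groups. In NC, mean FPKM was 74.8 ± 5.74 for Tead3, 21.6 ± 2.06 for Yap1, 16.4 ± 1.43 for Lats2 and 15.8 ± 2.40 for Wwtr1 (SD, n = 4). It was 13.7 ± 1.22 for Amotl2, 9.45 ± 4.29 for Ankrd1 and 8.16 ± 1.95 for Amotl1, and 7.24 ± 1.16 for Ajuba, 6.40 ± 0.730 for Lats1 and 4.84 ± 1.03 for Tead1. Only Tead3 against Yap1 and Yap1 against Lats2 had NC ranges that lay apart, and all other neighbours in this order overlapped. In 5 of the 8 rats Wwtr1 was above Lats2, and these included all 4 runners.

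The remaining pathway was covered by 23 genes, of which 22 passed the filter on low counts and Wwc1 did not. In these, 16 log2 fold changes were above 0 and 6 below, with a median of 0.05. None passed an adjusted p of 0.05 by edgeR or DESeq2 (lowest edgeR adjusted p = 0.50), and 2 of the 22, 1 higher and 1 lower, had an unadjusted edgeR p under 0.05. That is near the share of all genes, 9.51%. The 5 genes of the core kinase cassette (Stk3, Stk4, Sav1, Mob1a and Mob1b) stayed within log2 fold changes of -0.11 to 0.05. All 5 further TEAD genes and cofactors (Tead2, Tead4, Vgll2, Vgll3 and Vgll4) had estimates above 0, from 0.06 to 0.27, with a lowest adjusted p of 0.715 by edgeR. These 5 include 3 whose direction turned without 12 h p.r. replicate 3, the rat high in muscle markers: Vgll2 went from 0.24 to -1.26, Tead4 from 0.06 to -0.12 and Vgll3 from 0.18 to -0.09. Vgll2, a cofactor best known from skeletal muscle, was also at -0.45 with the muscle covariate, and Tead2 went from 0.27 to 0.09 without both rats high in cartilage and bone markers.

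Map4k4, a kinase that can activate Lats alongside the Mst kinases, had 142, 148, 147 and 140 CPM at 12 h p.r. and 114, 125, 125 and 136 CPM in NC. These groups did not overlap, and Map4k4 was the only 1 of the 22 pathway genes tested in which every runner exceeded every control. That is near the share of all genes with this pattern, 3.52%. The Map4k4 log2 fold change was 0.20 (SE 0.09, unadjusted p = 0.0425, edgeR adjusted p = 0.507). Frmd6, an upstream FERM-domain activator of the pathway, had 82.6, 91.1, 76.4 and 97.6 CPM at 12 h p.r. and 103, 92.9, 111 and 106 CPM in NC. It was the lowest of the list at -0.25 (SE 0.10, unadjusted p = 0.0395, edgeR adjusted p = 0.50), with only 12 h p.r. replicate 4 inside the NC range. Wtip, an Ajuba-family LIM protein, was the highest at 0.32 (SE 0.19, edgeR adjusted p = 0.633), and at 0.15 without 12 h p.r. replicate 1 and 0.11 without both rats high in cartilage and bone markers. The symbol Wtip does not occur in the deposited data, and the gene was matched through a RefSeq synonym. The unadjusted p of Map4k4 stayed under 0.05 in 1 of 8 fits that left out a rat and that of Frmd6 in 3 of 8.

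The third angiomotin, Amot, was named after its values were seen. It had 11.6, 7.76, 44.8 and 9.09 CPM at 12 h p.r. and 12.6, 21.1, 16.6 and 14.6 CPM in NC, with the highest value in the same rat as Amotl1. Its log2 fold change was 0.18 with all rats, -0.77 without 12 h p.r. replicate 3 and -0.33 with the fast muscle markers as a covariate. It was -0.07 to -0.18 in limma on log2 FPKM, so its direction depended on the fit as well as on that rat.

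Of 19 YAP/TAZ target genes listed from other cell types, 18 were matched in the table and all 18 passed the filter. Their log2 fold changes were above 0 in 9 and below 0 in 9, with a median of -0.02. None passed an adjusted p of 0.05 by edgeR (lowest 0.399), and 1, F3, passed by DESeq2. At an unadjusted edgeR p under 0.05 there were 0 higher genes and 4 lower ones, Ccn2, F3, Igfbp3 and Tgfb2, where 4.08% of all genes were lower. In 3 of the 18 (Ccn2, F3 and Tgfb2) no runner reached the lowest control, against 2.55% of all genes.

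**Figure D5:**
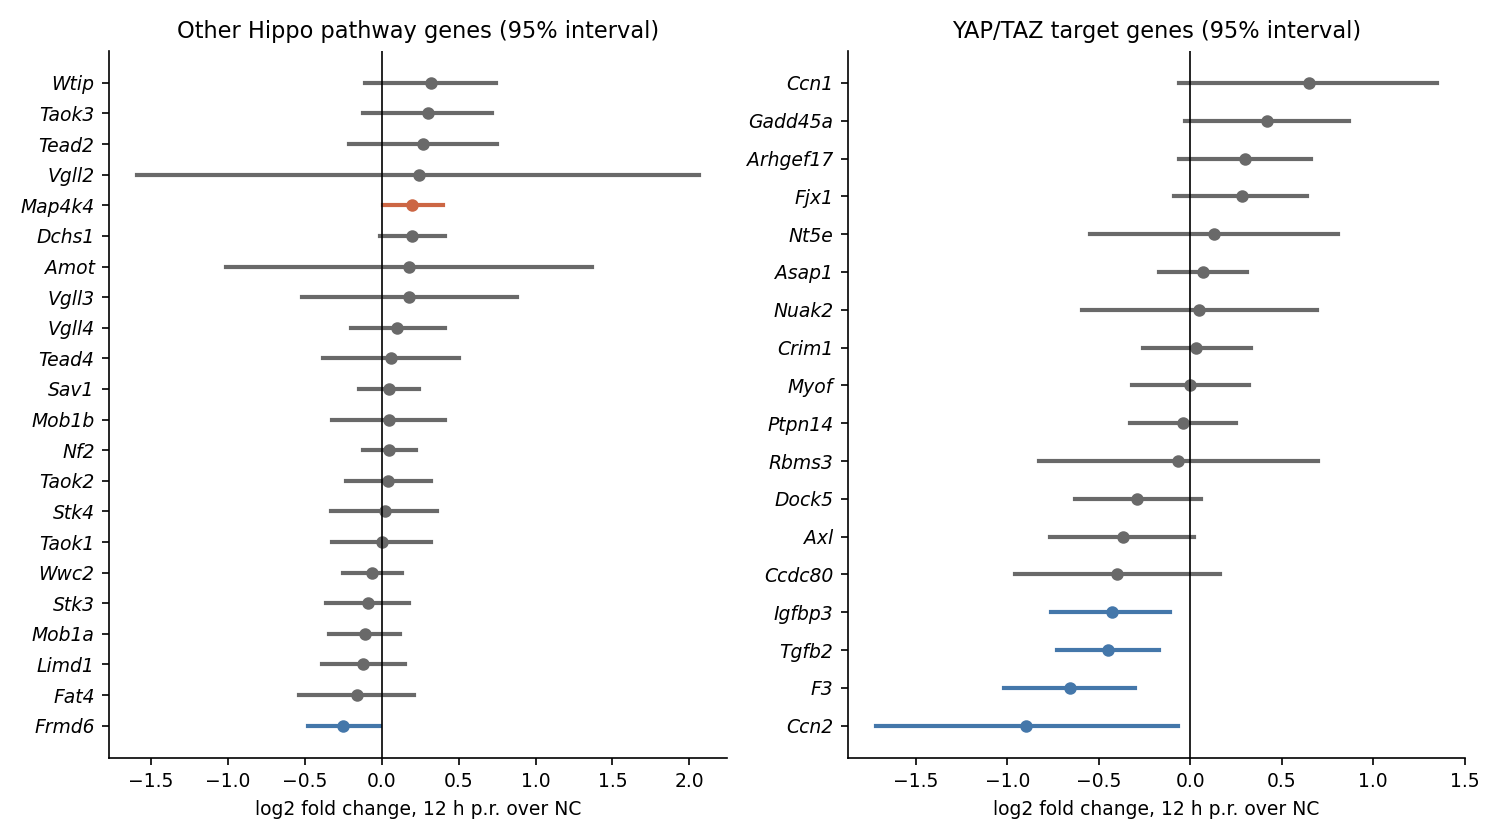
Log2 fold change (horizontal axes, 12 h p.r. over NC) by edgeR with 95% intervals for the 22 other Hippo pathway genes tested (left) and the 18 YAP/TAZ target genes (right), orange or blue where the unadjusted p is under 0.05 and the gene is higher or lower. Map4k4 and Frmd6 are marked on the left, and Igfbp3, Tgfb2, F3 and Ccn2 at the low end on the right.

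Ccn1 and Ccn2, the matricellular targets most used as a readout of YAP and TAZ, lay at opposite ends of this list. Ccn1 had 65.0, 150, 90.2 and 176 CPM at 12 h p.r. and 74.0, 59.8, 107 and 66.9 CPM in NC. Its groups overlapped, with replicates 2 and 4 of the runners on top, and its log2 fold change was 0.65 (SE 0.31, unadjusted p = 0.0684, edgeR adjusted p = 0.553). The Ccn1 estimate was 0.40 without 12 h p.r. replicate 4, 0.85 without 12 h p.r. replicate 1 and also 0.85 without NC replicate 3, where the unadjusted edgeR p-values were 0.215, 0.0115 and 0.0320. Without both rats high in cartilage and bone markers it was 1.05 (edgeR adjusted p = 0.599). Ccn2, also called connective tissue growth factor, had 917, 962, 302 and 938 CPM at 12 h p.r. and 1440, 1119, 1160 and 2095 CPM in NC. Every runner was below every control, and replicate 3 was lowest by far. The Ccn2 log2 fold change was -0.90 (SE 0.37, 95% interval -1.72 to -0.07, unadjusted p = 0.0362, edgeR adjusted p = 0.498). It was -0.63 without 12 h p.r. replicate 3 (edgeR adjusted p = 0.404) and -0.85 with the muscle covariate (edgeR adjusted p = 0.301). The unadjusted edgeR p was 0.0212 without that rat and 0.000768 with the covariate, against 0.0362 with all rats and no covariate. The unadjusted edgeR p stayed under 0.05 in 6 of the 8 fits that left out a rat. It went to 0.109 without NC replicate 4 and 0.0618 without NC replicate 1.

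F3, tissue factor and the starter of blood clotting, had 48.6, 45.2, 39.3 and 57.6 CPM at 12 h p.r. and 77.4, 57.7, 75.2 and 91.3 CPM in NC. The highest runner and the lowest control nearly met, and the log2 fold change was -0.66 (SE 0.16, unadjusted p = 0.00242, adjusted p = 0.399 by edgeR and 0.0353 by DESeq2). Tgfb2, a growth factor of tendon development, had 56.1, 49.8, 49.5 and 49.2 CPM against 65.1, 57.1, 85.3 and 71.6 CPM. Its groups did not overlap, with a log2 fold change of -0.45 (SE 0.12, unadjusted p = 0.00570, edgeR adjusted p = 0.432). Igfbp3, an insulin-like growth factor binding protein, had 97.9, 72.9, 69.9 and 74.6 CPM against 105, 126, 88.0 and 106 CPM, overlapping through 12 h p.r. replicate 1, with a log2 fold change of -0.43 (SE 0.14, unadjusted p = 0.0150, edgeR adjusted p = 0.437). The unadjusted p of F3, Tgfb2 and Igfbp3 stayed under 0.05 in all 8 fits that left out a rat.

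Markers of other cell types were set beside these results. The 7 endothelial markers summed to 1309 to 1568 CPM at 12 h p.r. and 1311 to 1440 CPM in NC, and at an unadjusted edgeR p under 0.05 there were 2 higher, Egfl7 and Tie1, and 1 lower, Emcn. Of all genes tested, 5.44% were higher and 4.08% lower at that p. Egfl7 had a log2 fold change of 0.40 (adjusted p = 0.392 by edgeR and 0.0121 by DESeq2) and Tie1 of 0.31 (edgeR adjusted p = 0.451). For both, every runner was above every control, as for the tenocyte marker Scx and for Yap1 and Wwtr1. Of all genes, 3.52% had this pattern. The endothelial markers Cdh5, Kdr, Vwf and Tek had overlapping groups, with estimates of 0.29, 0.09, 0.03 and -0.12. Emcn was at -0.40 (edgeR adjusted p = 0.488). The 7 smooth muscle and pericyte markers summed to 1917 to 2523 CPM and 1653 to 2205 CPM. All 7 of the latter had estimates above 0, with a median of 0.34, and 1 of the 7 had an unadjusted edgeR p under 0.05, beside 5.44% of all genes that were higher at that p. The leukocyte sum was 557 to 2560 CPM against 793 to 3625 CPM and the adipocyte sum 1096 to 2965 CPM against 1866 to 3354 CPM, and the Schwann cell sum was 253 to 324 CPM against 218 to 491 CPM. Each of these sums overlapped between the groups. Of the 8 tenocyte markers 4 had estimates above 0 and 4 below, and 3, Scx, Mkx and Thbs4, were higher at an unadjusted edgeR p under 0.05, where 5.44% of all genes were. Their log2 fold changes were 0.62, 0.78 and 0.56. With the fast muscle covariate the estimates were 0.47 for Yap1 and 0.35 for Wwtr1. The part of cell composition in the levels of these 2 genes was not tested beyond that fit.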

How the data were processed

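Gene counts and FPKM values of 8 rats were analysed. According to the submitters' processing notes and the study's methods, reads were aligned with HISAT2 2.1.0 to Rnor_6.0 and the authors deposited counts per gene from featureCounts 1.6.3. In 9838 genes with at least 50 reads in every rat, the ratio of count to deposited FPKM followed the DESeq2 size factors from rat to rat. The division by gene length was taken from the name of the FPKM unit and was not checked. The strand setting of counting is not given in the sources used here. Groups were taken from the sample titles, whose numbered replicates were taken as separate rats, so p-values set the group difference against the variation between these libraries.

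Counts of 13937 genes that passed filterByExpr were scaled by TMM and tested in edgeR 4.0.16 (glmQLFit, glmQLFTest, R 4.3.3) with no covariate, with Benjamini-Hochberg adjustment over all of them. DESeq2 1.42.0, limma 3.58.1 on log2 FPKM, other filters and scalings, left-out rats, the replicate number as a block and a muscle covariate served as alternatives. Exact permutation tests used log2(CPM + 0.5). The tests were checked on simulated data. Precision is limited by 4 rats per group and by low read counts, which fell to 72 for Tead1 and 28 for Ankrd1. They fell to 22 for Tead2, 13 for Vgll3 and 8 for Vgll2. Ankrd1 also varied widely between the runners, from 3.62 to 82.2 CPM.

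The Hippo genes and all lists were chosen with earlier results of these data known. All 10 genes are described. From the pathway and target lists Ccn1, Ccn2, genes at an unadjusted p under 0.05 and the highest and lowest estimates are named. Amot, the further TEAD and Vgll genes and single tenocyte and endothelial markers were named after their values were seen.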

Additional observations from a re-analysis of the deposited data

Results flagged for a closer look

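In each group of 4 rats, a rat is listed here when its gap to the nearest other exceeded Dixon's 95% critical value for its share of the group's range on the log2 scale. Of 66 groups searched (Hippo genes, named genes and marker sums), 4 held such a rat, where chance gives about 3.30. Ccn2 in 12 h p.r. replicate 3 was at 8.24 on the log2(CPM + 0.5) scale, and the nearest other runner was at 9.84. Tgfb2 in 12 h p.r. replicate 1 was at 5.82 on that scale, and the nearest was at 5.65. The summed fast skeletal muscle markers of 12 h p.r. replicate 3 were at 15.86 in log2 of summed CPM, against 11.61. The summed cartilage and bone markers of NC replicate 3 were at 10.40, against 6.27. No Hippo gene held such a rat in either group.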

How the results depend on the processing

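Over 24 genes and 18 alternatives, 409 of 432 estimates kept their direction. The 23 that reversed belong to Lats1, Amotl2, Ajuba, Amot, Vgll2, Vgll3 and Tead4. Over the fits without a rat Lats1 ranged from -0.08 to 0.04, Amotl2 from -0.13 to 0.01 and Ajuba from -0.02 to 0.15. Lats1 went to between 0.01 and 0.04 without 12 h p.r. replicates 3 or 4 or NC replicates 3 or 4, Amotl2 to 0.01 without NC replicate 3, and Ajuba to -0.00 without 12 h p.r. replicate 3 and -0.02 without NC replicate 3. Amot and Vgll2, in this order, were at -0.07 and -0.16 in limma on log2(FPKM + 1), -0.18 and -0.35 in both limma fits on log2(FPKM + 0.1), -0.18 and -0.32 with the replicate block and -0.33 and -0.45 with the muscle covariate. Over the fits without a rat Amot ranged from -0.77 to 0.43, Vgll2 from -1.26 to 0.66, Tead4 from -0.12 to 0.18 and Vgll3 from -0.09 to 0.35, with each lowest value without 12 h p.r. replicate 3. Vgll2 was at -0.04 without NC replicate 1, and Tead4 at -0.04 without NC replicate 3.

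The number of genes called over the whole table was 1 by edgeR and 93 by DESeq2. It was 0 in all 3 limma fits, with the muscle covariate, without both rats high in cartilage and bone markers (a fit added after the data were seen), with a fold change of at least 2 also required, and in each fit without a rat (0 to 0). The Hippo genes at an unadjusted p under 0.05 numbered 3, and 1 to 3 without a rat, with 1 when NC replicate 1 or 2 was left out. Their median was 0.22, and 0.14 to 0.26 without a rat. The pathway genes at that p numbered 2, 1 with no filter on low counts, 0 without both rats high in cartilage and bone markers, and 0 to 3 without a rat. The targets numbered 4, and 3 to 6 without a rat.

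The replicate numbers gave no sign of pairing, as same-numbered rats correlated at 0.0699, -0.193, 0.116 and 0.0818 in their deviations from the group means, and 1 of 4 runners correlated best with its own number. With the replicate block 0 genes were called over the table, 0 pathway genes and 3 Hippo genes had an unadjusted p under 0.05, and the estimates were 0.47 for Yap1, 0.35 for Wwtr1, 0.65 for Amotl1 (unadjusted edgeR 0.0189) and 0.49 for Ankrd1. Depth limits Tead1 and Ankrd1 most. The 95% intervals given are not adjusted for the number of genes tested. Those of Yap1, Wwtr1 and Amotl1 lie above 0, at edgeR adjusted p of 0.385, 0.450 and 0.507. With 4 rats a group, differences of that size could thus miss the adjusted threshold, and smaller ones as well. The cause of the differences between edgeR and DESeq2 was not tested.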
